A study of Mus musculus with 59 samples.

Results

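The hippocampus was compared with the cortex in wild-type male mice (Mrpl40 +/+, Slc25a1 +/+), within animals. The members were the 16 of 59 libraries that the labels give as hippocampus or cortex of this genotype, replicates 2 to 9, so that each of 8 animals contributed 1 hippocampus and 1 cortex. The ninth wild-type cortex library (replicate 1) had no hippocampus of the same animal and entered only an alternative. The other libraries of the series came from mice heterozygous for Slc25a1 (Mrpl40 +/+, Slc25a1 +/-), heterozygous for Mrpl40 (Mrpl40 +/-, Slc25a1 +/+) or heterozygous for both. The product of Slc25a1 carries citrate across the inner mitochondrial membrane, Mrpl40 belongs to the large subunit of the mitochondrial ribosome, and both genes lie in the 22q11.2 microdeletion interval of humans. Their libraries were used here as 3 further sets of 7 animals with both tissues each. Poly(A) RNA was sequenced, and the labels give neither strain, age nor the cortical area or hippocampal part that was taken.

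The hippocampus is a curved sheet of cortex with a simpler layering than the neocortex. Its trisynaptic circuit runs from dentate granule cells through mossy fibres to CA3 pyramidal cells and on to CA1 and the subiculum, and the dentate gyrus keeps producing granule cells in adult mice. The neocortex is built of layers, with intratelencephalic neurons in the upper layers, and with subcortically projecting and corticothalamic neurons in the deep ones. Both share the main classes of interneuron and glia. In bulk RNA, fewer cells of a type and less RNA per cell cannot be told apart.

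Library totals ranged from 25168357 to 31854093 counts in cortex and from 21467790 to 28700192 in hippocampus, and 19300 of 57180 gene rows held enough counts to be tested. Levels below are in CPM, counts scaled to the library total after TMM normalization. Mrpl40 stood at 16.1 to 20.7 CPM in cortex (median 17.2) and 13.4 to 17.4 CPM in hippocampus (median 16.1). Slc25a1 stood at 12.2 to 26.6 CPM in cortex (median 24.4) and 11.3 to 26.6 CPM in hippocampus (median 24.9). Animals 6 and 7 held the lowest Slc25a1 values of both tissues (12.7 and 12.2 CPM in cortex, 11.3 and 12.3 CPM in hippocampus), against 23.1 to 26.6 CPM in the other libraries, so their level goes against the label of 2 wild-type copies and they are treated below as animals labelled wild type. Without animals 6 and 7 the number of genes called was 10425 and the number at least 2-fold apart 2253, against 11796 and 2284 with them. The hippocampus library of animal 8 stood apart from the other 7 hippocampi. Genes of deep neocortical layers summed to 1710 CPM in it against 1020 to 1220 CPM, and dentate granule cell genes to 2570 against 3510 to 3980 CPM. Its myelin genes gave the highest sum, 6800 CPM, where the 8 hippocampi started at 3190 CPM and had a median of 4130 CPM. The rule for single libraries used below did not flag the myelin sum. The part of this in any result was not tested, and list counts printed below that moved by over 1.5 times without animal 8, or without animals 6 and 7, are given without them.

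Hippocampus and cortex differed across most of the expressed genes, by small amounts for most and by large amounts for a minority. By edgeR's quasi-likelihood test with the animal as a block, 11796 genes (61.1% of the 19300 tested) passed a false discovery rate of 0.05, 6035 of them higher in hippocampus (31.3% of tested genes) and 5761 lower (29.8%). The median change of the called genes was 1.36-fold. At least 2-fold apart were 2284 genes (11.8%), 1020 higher (5.28%) and 1264 lower (6.55%), at least 4-fold apart were 661 and at least 8-fold 248. The median log2 difference over all tested genes was 0.014. For 5626 genes (29.2%) the 8 hippocampus values and the 8 cortex values did not overlap. The 5.28% and 6.55% are the shares against which the 2-fold counts of each gene list below are to be read, and 61.1% the share for all calls.

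The same difference was measured in the heterozygous mice, which share no library with the wild-type pairs. Of the wild-type genes at least 2-fold apart, 2226 of 2228 tested in Slc25a1 heterozygotes, 2220 of 2221 in Mrpl40 heterozygotes and 2213 of 2213 in double heterozygotes differed in the same direction. Called there in the same direction were 98.4%, 98.3% and 98.1% of them, where 59.8%, 61.7% and 57.3% of all tested genes were called. Across these genes, which are not independent replicates, the log2 differences correlated with Pearson's r of 0.99, 0.987 and 0.989. An interaction of tissue and genotype tested over 21354 genes with edgeR called 0 genes for Slc25a1 heterozygotes (1281 at an unadjusted p under 0.05), 0 for Mrpl40 heterozygotes (1244) and 5 for double heterozygotes (1074). Those 5 calls became 0 without animals 6 and 7, 3 without wild-type animal 8 and 1 without the animal block.

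**Figure D1:**
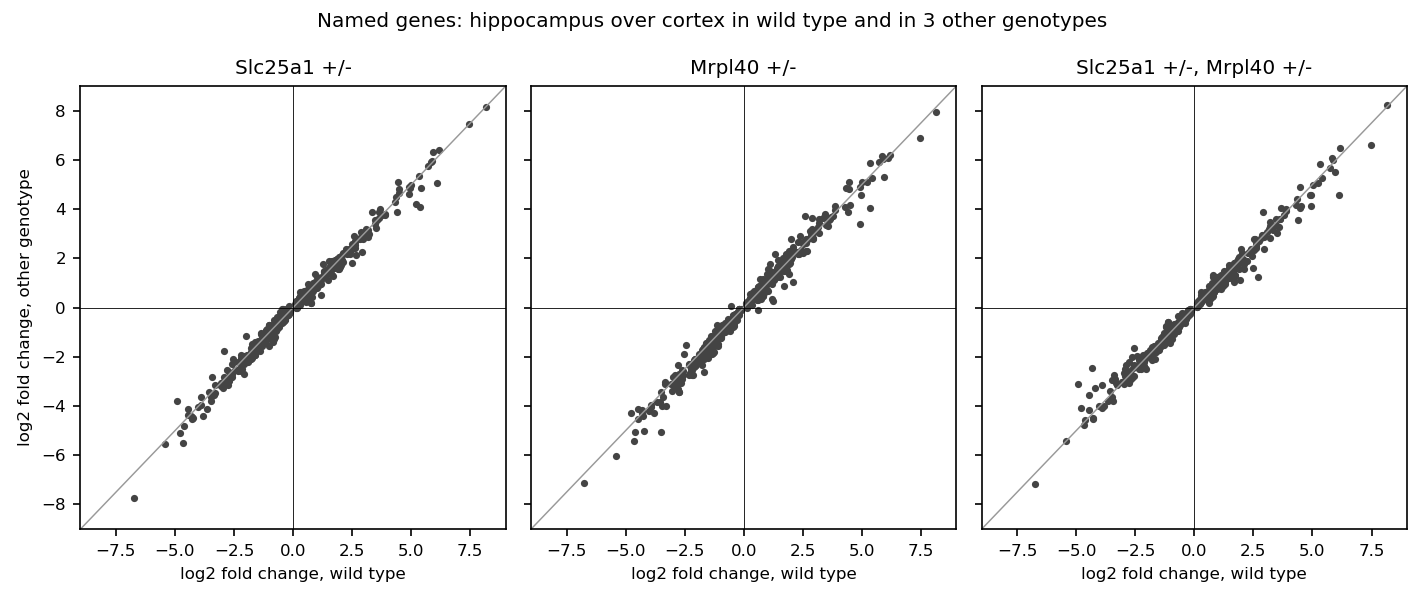
Log2 difference between hippocampus and cortex in wild type (x axis) against that in each heterozygous genotype (y axis, 1 panel per genotype), 1 point for each gene named in the lists or among the largest differences. The signs were the same for 462 of 466 genes in Slc25a1 heterozygotes, 461 of 464 in Mrpl40 heterozygotes and 466 of 466 in double heterozygotes.

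The genes furthest apart upward were led by markers of the dentate gyrus. Dsp, which encodes the desmosomal plaque protein desmoplakin, stood at 0.120 to 1.01 CPM in cortex (median 0.440) and 71.4 to 151 CPM in hippocampus (median 143). The 2 groups were far from overlapping, with a log2 difference of 8.15 ± 0.17 (± standard error here and below; adjusted p = 3.41e-10, edgeR), which is 283-fold. C1ql2, a secreted C1q-like protein of mossy fibre synapses, stood at 0.471 to 1.78 CPM in cortex (median 0.936) and 111 to 207 CPM in hippocampus (median 181), a log2 difference of 7.46 ± 0.15. Lct, the gene of lactase and a granule cell marker, stood at 0.882 to 2.71 CPM in cortex (median 1.53) and 51.0 to 139.9 CPM in hippocampus (median 130.3), and its lowest hippocampus value, 51.0 CPM, was that of animal 8. A further 8 of the 12 largest rises were Krt2, Lhx9, Vwa3b, Lrrc10b, Slc9a4, Tspan18, Tdo2 and Htr4, with log2 differences of 5.94, 5.83, 5.73, 5.33, 5.21, 5.01, 4.96 and 4.91. A higher value in hippocampus in 8 of 8 animals was a condition for entering these 12.

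Downward, the largest difference was that of Igfn1, an immunoglobulin and fibronectin type III domain gene. It stood at 161 to 218 CPM in cortex (median 194) and 0.501 to 5.61 CPM in hippocampus (median 0.988), 108-fold lower in hippocampus with a log2 difference of -6.75 ± 0.36 (adjusted p = 1.03e-06, edgeR). Its highest hippocampus value was that of animal 6. Adam33, a metalloprotease, stood at 18.3 to 43.2 CPM in cortex (median 33.3) and 0.0443 to 2.16 CPM in hippocampus (median 0.434), and its log2 difference of -5.42 ± 0.45 became -6.01 without animal 8. Egr2, Dkkl1, Atp6ap1l, Coch, Rasgef1c, Sema3a, Tspan11, Rspo1 and Tgm3 were a further 9 of the 12 largest falls, with log2 differences from -4.78 to -3.81. Sema3a, a secreted repellent of growing axons, is described with the guidance genes and Egr2 with the immediate early genes.

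**Figure D2:**
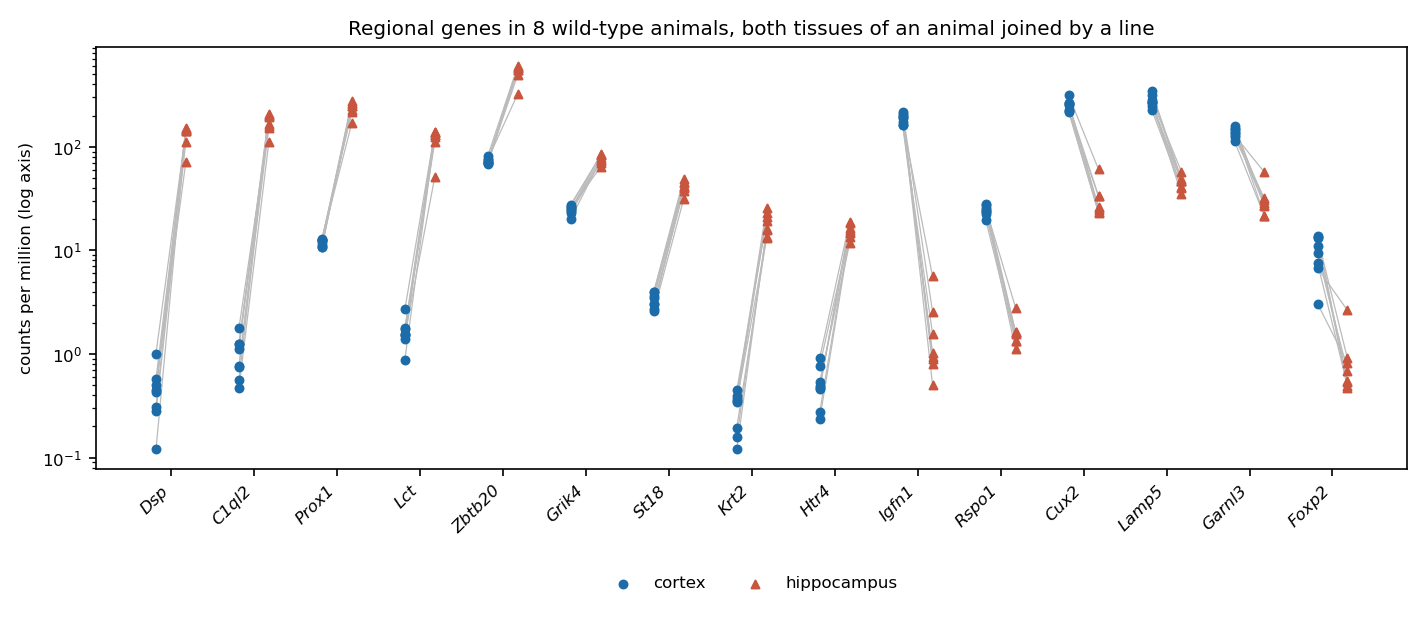
Values in CPM (logarithmic axis) of 15 regional genes in each library, with cortex as blue circles, hippocampus as red triangles and a line joining the tissues of an animal. Each of the 9 genes on the left was higher in hippocampus in 8 of 8 animals, and each of the 6 on the right was lower.

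Genes of dentate granule cells rose as a group. Of 27 tested, 25 were called higher in hippocampus and 2 lower, 20 and 1 of them at least 2-fold, with a median log2 difference of 2.20 beside 0.014 over all tested genes. Values of the 2 tissues did not overlap for 23 of the 27 (29.2% of all genes). Prox1, the homeobox factor that specifies granule cells, stood at 10.8 to 12.9 CPM in cortex (median 12.3) and 169 to 276 CPM in hippocampus (median 247), a log2 difference of 4.30 ± 0.10. Tdo2, tryptophan dioxygenase, and Il16, a cytokine precursor, rose by 4.96 and 4.46 on the log2 scale. The 2 members that fell were Nr4a1 (-2.90), an immediate early gene, and Pdzd2 (-0.36), a PDZ domain protein. Without animal 8, 25 members rose and 2 fell, and the median was 2.26.

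Of 18 CA1 genes, 11 rose and 4 fell, 9 and 4 at least 2-fold, with a median log2 difference of 1.04. Ndst4, a heparan sulfate sulfotransferase, stood at 0.506 to 9.04 CPM in cortex (median 0.781) and 25.8 to 40.2 CPM in hippocampus (median 30.7), and its log2 difference of 4.46 ± 0.54 became 5.33 without animal 2. Spink8, Fibcd1 and Lefty1, all used as CA1 markers, rose by 3.45, 3.14 and 2.89 on the log2 scale. Among those that fell were Cds1, Nov and Mpped1, with log2 differences of -1.46, -1.16 and -1.11. Without animal 8, 11 rose and 4 fell.

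CA2 and CA3 genes were mixed. Of 34 tested, 20 rose and 8 fell, 13 and 4 at least 2-fold, with a median of 0.53. Iyd, iodotyrosine deiodinase, stood at 0 to 0.310 CPM in cortex (median 0.127) and 3.05 to 8.87 CPM in hippocampus (median 6.36) and St18, a zinc finger factor, at 2.59 to 3.97 CPM in cortex (median 3.27) and 31.3 to 49.1 CPM in hippocampus (median 41.2). Prss35, Sostdc1 and Loxl1 rose by 2.94, 2.00 and 1.90 on the log2 scale. Tyro3, a receptor tyrosine kinase, Col6a1, a collagen, Ptpn5, the phosphatase STEP, Kcnq5 and Socs2 fell, with log2 differences of -2.08, -1.85, -1.36, -1.02 and -0.80. Of 10 mossy cell genes 6 rose and 4 fell, and the list summed to 593 to 674 CPM in cortex and 358 to 503 CPM in hippocampus, without overlap. The 4 that fell were Cntn6, a contactin, Sv2b, a synaptic vesicle protein, Ajap1 and Ap2s1, an adaptor subunit of endocytosis, with log2 differences of -1.75, -0.90, -0.47 and -0.20. Csf2rb2, a cytokine receptor chain whose reads can be shared with its close copy Csf2rb, rose by 3.19 and Drd2, the D2 dopamine receptor, by 2.50. Calb2, the calcium-binding protein calretinin of mossy cells and of some interneurons, rose by 1.72. Of 11 subiculum genes 6 rose and 2 fell, and Nts, the neurotensin precursor, stood at 0.0387 to 0.354 CPM in cortex (median 0.163) and 2.79 to 17.7 CPM in hippocampus (median 4.15). Subiculum genes summed to 513 CPM in the hippocampus of animal 8 against 285 to 344 CPM in the other 7, and without animal 8, 6 members rose and 2 fell.

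Genes of neocortical layers 2 to 4 were the counterpart. Of 19 tested, 15 fell in hippocampus and 3 rose, 13 and 2 at least 2-fold, with a median log2 difference of -1.77, and 15 of the 19 did not overlap. Cux2, a homeobox factor of upper-layer neurons, stood at 218 to 314 CPM in cortex (median 255) and 23.1 to 60.6 CPM in hippocampus (median 25.9), a log2 difference of -3.07 ± 0.13 (adjusted p = 1.07e-07, edgeR). Rspo1, a secreted Wnt enhancer, stood at 19.8 to 28.0 CPM in cortex (median 24.4) and 1.11 to 2.81 CPM in hippocampus (median 1.56). Nptx2, a pentraxin that clusters AMPA receptors, Lamp5, a membrane protein of upper layers and of neurogliaform cells, and Otof, otoferlin, fell by 2.77, 2.63 and 2.22 on the log2 scale. The 3 that rose were Mdga1 (1.91), an adhesion molecule that binds neuroligins, Scnn1a (1.05), an epithelial sodium channel subunit of layer 4, and Calb1 (0.36), calbindin, which granule cells also contain.

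Deep-layer genes did not move 1 way. Of 33 tested, 13 fell and 11 rose, 10 and 5 at least 2-fold, with a median log2 difference of -0.096; without animal 8, 15 fell and 11 rose. Foxp2, a forkhead factor of corticothalamic cells, stood at 3.06 to 13.9 CPM in cortex (median 10.3) and 0.465 to 2.64 CPM in hippocampus (median 0.615). Oprk1, the kappa opioid receptor, Garnl3, Deptor, an inhibitor of mTOR, and Ntsr1, the neurotensin receptor of layer 6, fell by 2.59, 2.21, 1.70 and 1.61 on the log2 scale. Crym, a thyroid hormone-binding crystallin, stood at 12.9 to 40.8 CPM in cortex (median 20.4) and 88.3 to 149 CPM in hippocampus (median 117), and its values did not overlap. Nnat, neuronatin, Fam84b, Tshz2, a zinc finger factor, and Hsd11b1, the dehydrogenase that regenerates corticosterone, also rose, by 1.93, 1.92, 1.23 and 1.15.

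Transcription factors that pattern the forebrain moved in both directions. Of 61 tested, 23 rose and 25 fell, 12 and 11 at least 2-fold. Zbtb20, a zinc finger repressor needed for hippocampal pyramidal identity, stood at 68.4 to 81.9 CPM in cortex (median 71.3) and 323 to 599.6 CPM in hippocampus (median 564), with no overlap and a log2 difference of 2.85 ± 0.11. Lhx9, a LIM homeobox factor, stood at 0 to 0.935 CPM in cortex (median 0.417) and 20.1 to 33.0 CPM in hippocampus (median 26.5). Lmo3, a LIM-only protein, and Nfib, a nuclear factor I protein, rose by 1.67 and 1.34 on the log2 scale. Mef2c, a MADS-box factor that restrains synapse number, stood at 796 to 896 CPM in cortex (median 850.1) and 152 to 230.1 CPM in hippocampus (median 192), without overlap. Tshz3, a zinc finger factor, and Rorb, the layer 4 nuclear receptor, fell by 1.82 and 1.77.

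**Figure D3:**
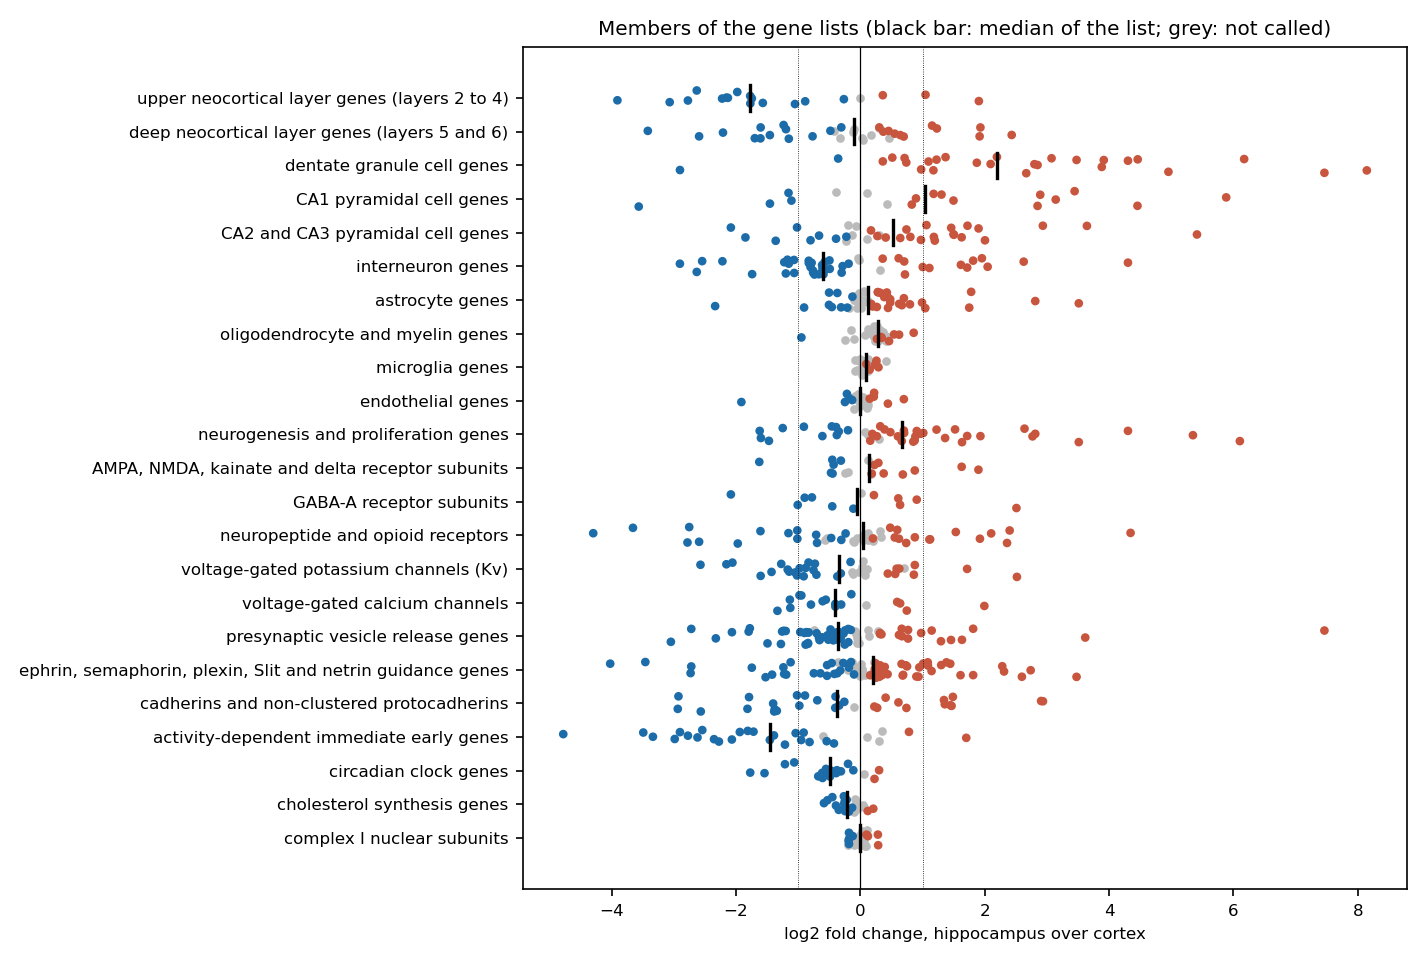
Log2 difference between hippocampus and cortex for every tested member of 23 gene lists, with members called higher in red, called lower in blue and not called in grey, a black bar at each list's median and dotted lines at 2-fold. Dentate granule cell genes lie mostly to the right (median 2.20), and upper-layer genes (median -1.77) and immediate early genes (median -1.46) mostly to the left.

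Markers of neighbouring brain regions were read for tissue carried along in dissection. Of 18 striatal genes 6 rose and 7 fell, and the list summed to 691 to 772 CPM in cortex and 689 to 844 CPM in hippocampus. Of 14 thalamic genes 8 rose and 5 fell, with sums of 228 to 262 CPM in cortex and 258 to 366 CPM in hippocampus, the highest hippocampus sum being that of animal 8. Of 16 cerebellar genes 4 rose and 5 fell, and of 10 olfactory and claustral genes 4 and 4. Sh3rf2, a striatal ring finger protein, fell by 4.92 on the log2 scale (by 5.61 without animal 7), whereas Drd2 was among the 6 striatal genes that rose. The thalamic list also holds Lhx9, named above among the largest rises, which rose by 5.83, and Calb2, named with the mossy cell genes. Prkcd, protein kinase C delta of thalamic cells, rose by 1.04, whereas Rora was among the 5 thalamic genes that fell. No single marker thus stood for its list. The part of such tissue in the other results was not tested.

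Markers of microglia, of the oligodendrocyte lineage and of vessels were compared next. None of 28 microglia genes fell, 6 rose and 22 were not called, with no difference of 2-fold. Of 34 oligodendrocyte and myelin genes 7 rose, 1 fell and 26 were not called, again with none 2-fold apart; without animal 8, 6 rose and 3 fell, 1 of them at least 2-fold, and without the animal block 14 of the 34 were called. Endothelial genes (25 tested) gave 5 rises and 5 falls, and Cd34, a surface sialomucin, was the sole member at least 2-fold apart, at -1.91; without animals 6 and 7, and also without the animal block, 3 fell. Of 16 pericyte and smooth muscle genes 4 rose and 2 fell, and 2 rose without animals 6 and 7. Of 18 oligodendrocyte precursor genes 8 rose and 3 fell. The shares called were 21.4% of microglia, 23.5% of oligodendrocyte, 37.5% of pericyte, 40.0% of endothelial and 61.1% of oligodendrocyte precursor genes, beside 61.1% of all tested genes.

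Among glia, astrocyte genes had the highest share of calls, 68.9%. Of 45 tested, 22 rose and 9 fell, 5 and 1 at least 2-fold. Gfap, the intermediate filament of astrocytes and of neural stem cells, stood at 40.4 to 96.2 CPM in cortex (median 61.6) and 342 to 501 CPM in hippocampus (median 444), with no overlap and a log2 difference of 2.81 ± 0.21. Thbs4, a thrombospondin, Gdf10, a growth factor, Agt, angiotensinogen, and Id3, an inhibitor of differentiation, rose by 3.51, 1.78, 1.75 and 1.04 on the log2 scale. Chrdl1, a BMP antagonist secreted by astrocytes that drives AMPA receptor maturation, stood at 29.8 to 40.9 CPM in cortex (median 36.7) and 6.18 to 8.66 CPM in hippocampus (median 6.99), a log2 difference of -2.34 ± 0.075. Etnppl, Aldh1l1, Igfbp2 and Dio2 fell by 0.91, 0.51, 0.50 and 0.46.

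Markers of the meninges and the choroid plexus were read for adhering tissue. Of 22 meningeal and fibroblast genes 8 rose and 5 fell. Lum and Ogn, matrix proteoglycans, rose by 2.24 and 2.07 on the log2 scale, while Ptgds, prostaglandin D synthase, fell by 1.10. The list summed to 314 to 981 CPM in cortex and 298 to 505 CPM in hippocampus, with 981 CPM in the cortex of animal 8 against 314 to 582 CPM in the other 7; without animal 8, 7 of 21 members rose and 4 fell, and without animals 6 and 7, or without the animal block, 3 of 22 fell. Only 10 of 24 choroid plexus genes could be tested, of which 5 rose and 1 fell. Ttr, transthyretin, the most abundant choroid plexus transcript, stood at 0.273 to 2.67 CPM in cortex (median 1.51) and 0.686 to 5.85 CPM in hippocampus (median 3.52). Kl, the anti-ageing protein klotho, stood at 1.70 to 4.21 CPM in cortex (median 2.13) and 18.2 to 26.4 CPM in hippocampus (median 23.8), and granule and pyramidal neurons are also known to express it. Of 11 tested ependymal genes of 21, 3 rose and 2 fell, and 1 fell without animals 6 and 7.

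Genes of neurogenesis and proliferation rose in larger number than they fell. Of 43 tested, 29 rose and 11 fell, 14 and 4 at least 2-fold, with a median log2 difference of 0.67, and 30 of the 43 did not overlap. Igfbpl1, a marker of neuroblasts, stood at 0 to 0.116 CPM in cortex (median 0.0344) and 1.89 to 4.96 CPM in hippocampus (median 2.75). Eomes, the T-box factor of intermediate progenitors, stood at 0 to 0.0687 CPM in cortex (median 0) and 0.549 to 1.27 CPM in hippocampus (median 0.921). Dcx, doublecortin of migrating neuroblasts, went the other way, from 40.0 to 51.4 CPM (median 46.3) in cortex to 13.0 to 25.4 CPM (median 16.4) in hippocampus, a log2 difference of -1.47 ± 0.077. Stmn1, Fxyd7, Elavl4 and Tubb3, which mature neurons also express, fell by 1.62, 1.60, 1.25 and 0.91 on the log2 scale. Prox1, Thbs4 and Gfap, named above, are on this list too, so its rises are in part those of granule cell and astrocyte genes. Of 20 pan-neuronal genes 14 fell and 2 rose, with 1 fall of at least 2-fold and a median log2 difference of -0.295. They summed to 26500 to 28100 CPM in cortex and 20200 to 23800 CPM in hippocampus, without overlap. Without animal 8, 3 falls were at least 2-fold, and without animals 6 and 7 the counts were 2 such falls and 1 rise.

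Interneuron genes were lower in hippocampus more often than higher. Of 47 tested, 30 fell and 13 rose, 11 and 9 at least 2-fold, with a median log2 difference of -0.594. Gad1, the main GABA-synthesizing enzyme, was not called, at 296 to 418 CPM in cortex (median 371) and 322 to 427 CPM in hippocampus (median 359.7) with a log2 difference of -0.03 ± 0.053. Pvalb, parvalbumin of basket cells, stood at 48.5 to 73.8 CPM in cortex (median 64.8) and 12.9 to 32.1 CPM in hippocampus (median 19.1), a log2 difference of -1.74 ± 0.19. Sst, the somatostatin precursor of dendrite-targeting cells, stood at 118 to 180.1 CPM in cortex (median 131) and 41.8 to 98.9 CPM in hippocampus (median 52.2), and Vip, of disinhibitory cells, at 46.6 to 69.1 CPM in cortex (median 53.3) and 7.73 to 18.7 CPM in hippocampus (median 11.1). Crh, corticotropin-releasing hormone, and Akr1c18 fell by 2.90 and 2.54 on the log2 scale. Nos1, neuronal nitric oxide synthase, and Ndnf, of neurogliaform cells, stood higher, at log2 differences of 1.96 ± 0.13 and 2.05 ± 0.20, as did Tnfaip8l3 (2.63) and Synpr (1.81), a synaptic vesicle protein that mossy fibres also carry. Pyramidal and granule cells express several of these genes, so the list is not one of interneurons alone.

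Glutamate receptor subunits differed by subunit. Of 18 AMPA, NMDA, kainate and delta subunits 8 rose and 6 fell, 2 and 1 at least 2-fold. Gria1, the AMPA subunit GluA1, stood at 321 to 413 CPM in cortex (median 365) and 1067 to 1469 CPM in hippocampus (median 1413), without overlap, a log2 difference of 1.90 ± 0.056 (adjusted p = 4.57e-13, edgeR). Gria4, which interneurons express strongly, went down from 149.7 to 178 CPM (median 163) in cortex to 43.8 to 83.8 CPM (median 48.6) in hippocampus, a log2 difference of -1.63 ± 0.13. Gria2, the subunit that blocks calcium entry, rose by 0.37 and Gria3 fell by 0.47 on the log2 scale. The 4 AMPA subunits thus gave log2 differences from -1.63 to 1.90 within the same animals. Grik4, a high-affinity kainate subunit of CA3, stood at 20.2 to 27.7 CPM in cortex (median 24.9) and 64.2 to 84.7 CPM in hippocampus (median 76.8), and Grik2 rose by 0.88. Among NMDA subunits the log2 difference of the obligatory Grin1 was -0.31, of Grin2a 0.68, of Grin2b 0.23 and of Grin2d -0.45.

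The list of AMPA and kainate receptor auxiliary proteins had a median absolute log2 difference of 0.859, beside 0.403 for the receptor subunits. It also holds Grid2ip, a partner of delta receptors. C1ql2 and Nptx2 are on it as well as on the dentate and upper-layer lists. Of 30 tested, 14 rose and 11 fell, 7 and 7 at least 2-fold. Shisa6, an AMPA receptor auxiliary protein of the CKAMP family, stood at 9.64 to 11.4 CPM in cortex (median 10.6) and 111 to 169 CPM in hippocampus (median 154), with a log2 difference of 3.78 ± 0.079. Cnih2, the cornichon that slows AMPA receptor gating in hippocampus, rose by 1.45, C1ql3 by 1.46 and Nptx1 by 1.34. Nptx2 stood at 52.3 to 108 CPM in cortex (median 82.1) and 8.17 to 16.2 CPM in hippocampus (median 11.7), so the 2 neuronal pentraxins moved in opposite directions. Olfm2 and Olfm3, olfactomedins, fell by 2.33 and 1.34 on the log2 scale, Grid2ip by 1.37 and Syndig1 by 1.24. This list summed to 4520 CPM in the hippocampus of animal 8 against 5870 to 6730 CPM in the other 7, and without that animal 14 members rose and 11 fell.

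Among 10 metabotropic glutamate receptors and Homer proteins 4 rose and 4 fell. Homer3, a scaffold of group I receptors, stood at 3.97 to 5.49 CPM in cortex (median 4.35) and 20.7 to 57.2 CPM in hippocampus (median 45.1), whereas Homer1, whose short form is an immediate early transcript, fell by 1.72 on the log2 scale. Grm2 and Grm5 rose by 0.65 and 0.56, and Grm4, Grm8 and Grm3 fell by 1.36, 1.30 and 0.37. Of 44 postsynaptic scaffold and kinase genes 24 fell and 14 rose, 9 and 3 at least 2-fold. The CaMKII subunits split: Camk2b, the actin-binding beta subunit, rose by 1.17 and Camk2a by 0.35, while Camk2d fell by 1.74. The CaMKII inhibitors Camk2n1 and Camk2n2 fell by 1.77 and 1.39.

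GABA-A receptor subunits also divided, and 6 of the 18 held too few counts to test. Of the 12 tested, 5 rose and 6 fell, 1 and 2 at least 2-fold, with 1 such fall without animal 8. Gabra5, the alpha5 subunit of extrasynaptic receptors on hippocampal pyramidal cells, stood at 22.2 to 40.2 CPM in cortex (median 34.5) and 123 to 225 CPM in hippocampus (median 190.0), without overlap, a log2 difference of 2.51 ± 0.082. Gabra3 stood at 138 to 157 CPM in cortex (median 152) and 24.0 to 78.1 CPM in hippocampus (median 31.0), a log2 difference of -2.08 ± 0.18. Gabra2, Gabrb1 and Gabra4 rose by 0.91, 0.64 and 0.22 on the log2 scale. Gabrd, the tonic delta subunit, Gabrg3 and Gabrb2 fell by 1.01, 0.78 and 0.45. Of 23 GABA-B, glycine receptor and inhibitory scaffold genes 13 fell and 4 rose, 1 and 1 at least 2-fold; the falls of at least 2-fold were 2 without animal 8 and 0 without the animal block. Kctd12, an auxiliary GABA-B subunit, rose by 1.86, while its relatives Kctd8 and Kctd16 fell by 0.95 and 0.60. Slc32a1, the vesicular GABA transporter, fell by 0.83, and Slc12a5, the chloride exporter KCC2, by 0.60.

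**Figure D4:**
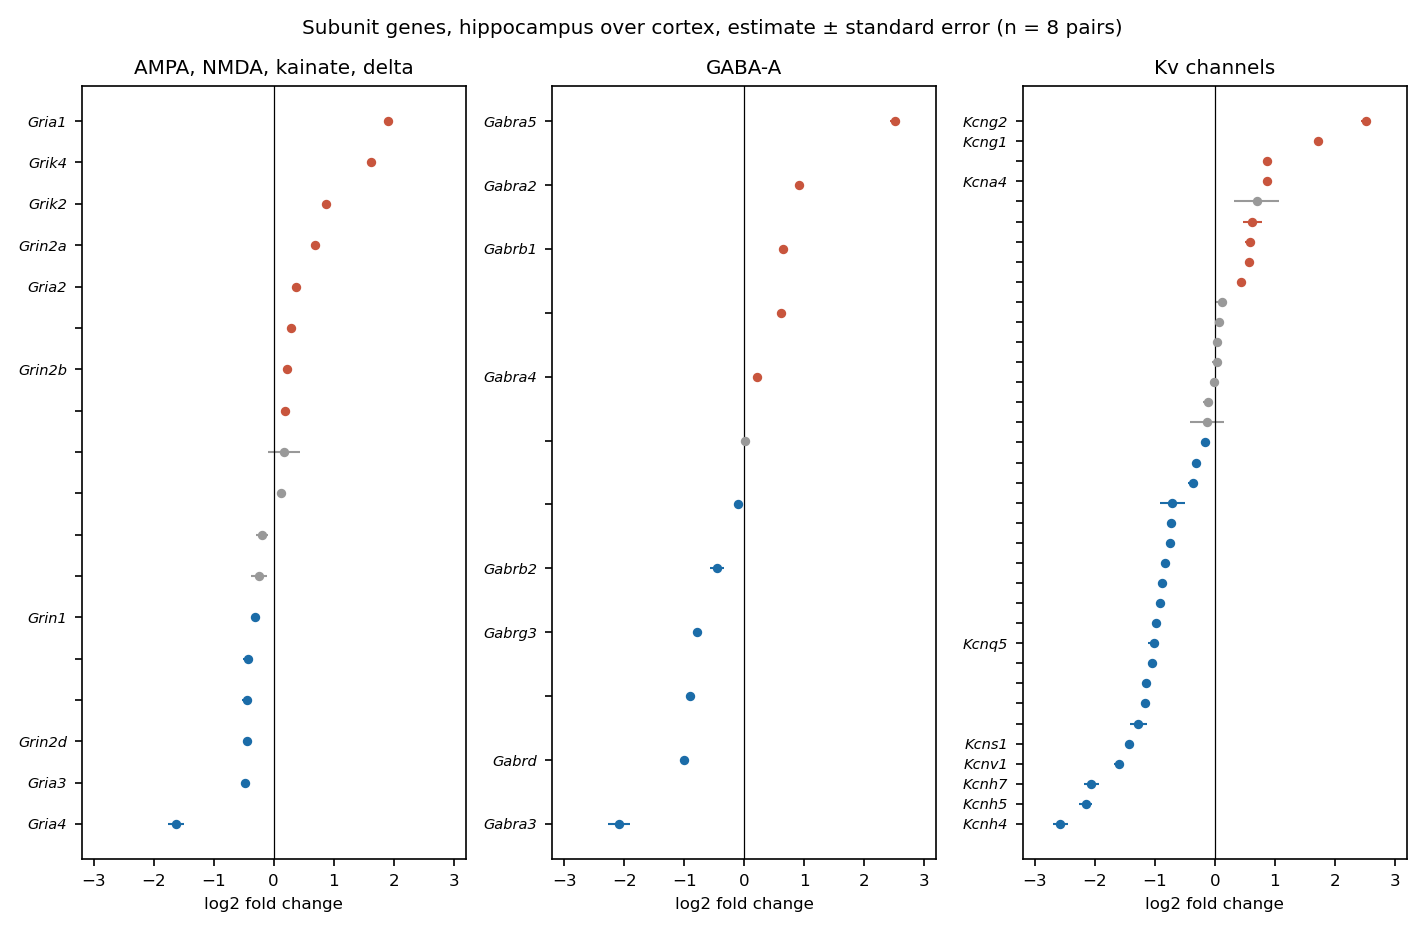
Log2 difference between hippocampus and cortex with its standard error (bars) for 18 ionotropic glutamate receptor subunits, 12 GABA-A receptor subunits and 36 Kv channel subunits, positive where hippocampus was higher, with the genes named in the text labelled. Gria1 and Gabra5 lie furthest right in their panels, and Gria4 and Gabra3 furthest left.

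Receptors for modulators held some of the largest differences. Of 11 serotonin receptors 5 rose and 5 fell, 3 and 3 at least 2-fold. Htr4, a Gs-coupled receptor, stood at 0.234 to 0.922 CPM in cortex (median 0.481) and 11.7 to 18.9 CPM in hippocampus (median 15.4), without overlap, a log2 difference of 4.91 ± 0.14. Htr1a, the inhibitory Gi-coupled receptor, rose by 1.39 on the log2 scale, and Htr5b, Htr3a and Htr2c by 1.11, 0.70 and 0.67. Htr2a, the Gq-coupled receptor of deep-layer neurons, went from 17.7 to 24.4 CPM (median 22.5) in cortex to 5.03 to 9.13 CPM (median 7.13) in hippocampus, a log2 difference of -1.60 ± 0.10. Htr5a, Htr1f, Htr7 and Htr1b fell by 1.28, 1.04, 0.85 and 0.68.

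Of 14 dopamine, adrenergic and histamine receptors 8 fell and 3 rose, 6 and 2 at least 2-fold. Drd5, the D5 receptor, stood at 0.303 to 0.736 CPM in cortex (median 0.427) and 6.83 to 11.7 CPM in hippocampus (median 10.7) and Drd2 at 0.168 to 0.818 CPM in cortex (median 0.524) and 2.35 to 3.64 CPM in hippocampus (median 2.85). Adrb1, the beta1 adrenergic receptor, Adra1b, and Hrh1 and Hrh2, histamine receptors, fell by 1.68, 2.64, 2.14 and 1.68 on the log2 scale. Adrb3 had a log2 difference of -3.31 at 2.63 to 4.71 CPM in cortex (median 3.40) and 0.222 to 0.549 CPM in hippocampus (median 0.328). Of 23 acetylcholine receptors and modulators 11 fell and 7 rose. Chrm2, the M2 receptor, and Chrm4, the M4 receptor, fell by 2.09 and 1.92, and Chrna7, the alpha7 nicotinic subunit of hippocampal interneurons, rose by 1.27. Chrna2, a marker of oriens lacunosum-moleculare interneurons, stood at 0.337 to 1.08 CPM in cortex (median 0.718) and 2.06 to 3.59 CPM in hippocampus (median 2.70). Chrna6 and Chrnb3, which form a nicotinic receptor together, had log2 differences of -4.32 and -4.22, and of -5.69 and -5.03 without animal 8.

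Receptors for neuropeptides divided evenly, with 15 of 43 called higher and 15 lower, 8 and 10 at least 2-fold. Npy2r, the presynaptic neuropeptide Y receptor of mossy fibres and CA3 cells, stood at 2.75 to 6.87 CPM in cortex (median 3.49) and 57.5 to 85.6 CPM in hippocampus (median 82.5), without overlap, a log2 difference of 4.35 ± 0.15. Cckbr, the cholecystokinin B receptor, went from 86.0 to 104 CPM (median 92.2) in cortex to 5.19 to 14.2 CPM (median 6.05) in hippocampus, a log2 difference of -3.66 ± 0.18. Mc4r, a melanocortin receptor, Npffr1, Trhr and Nmbr rose by 2.40, 2.36, 2.10 and 1.92 on the log2 scale. Trhr2, Rxfp2 and Qrfpr fell by 4.30, 2.78 and 2.75, so the receptors for thyrotropin-releasing hormone moved in opposite directions. Of 39 neuropeptides, granins and processing enzymes 22 fell and 8 rose, 11 and 1 at least 2-fold, and 5 rose without animals 6 and 7. Pcsk1, a prohormone convertase, Tac2, the neurokinin B precursor, and Adcyap1, PACAP, fell by 2.20, 1.96 and 1.68.

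Of 26 cannabinoid, adenosine and purine receptors and enzymes 9 rose and 4 fell. Cnr1, the CB1 receptor, rose by 0.62 on the log2 scale and Dagla, which makes its ligand, by 0.60, while Mgll, which degrades it, fell by 0.29. P2rx5 and P2ry1, ATP receptors, rose by 2.63 and 1.02. Of 36 steroid and nuclear receptor genes 20 fell and 8 rose, 7 and 4 at least 2-fold. Nr3c2, the mineralocorticoid receptor that binds corticosterone at its basal level, stood at 29.9 to 38.9 CPM in cortex (median 34.8) and 153 to 253 CPM in hippocampus (median 222), without overlap, a log2 difference of 2.62 ± 0.076. Fkbp5, a co-chaperone that lowers glucocorticoid receptor sensitivity, rose by 1.65 and the above-named Hsd11b1 by 1.15. Thrb and Rora fell by 1.42 and 1.32, and Nr2f2, of caudal interneurons, rose by 1.00.

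Potassium channels were lower in hippocampus more often than higher. Of 36 Kv subunits 20 fell and 8 rose, 10 and 2 at least 2-fold. Their median log2 difference was -0.343, beside -0.295 for the pan-neuronal genes. The part of a general lowering of neuronal transcripts in this and the next lists was not tested. Kcnh7 and Kcnh5, of the ERG and EAG families, stood at 128 to 174 CPM in cortex (median 147) and 23.3 to 61.5 CPM in hippocampus (median 34.4) and at 7.58 to 13.5 CPM in cortex (median 9.79) and 1.34 to 3.17 CPM in hippocampus (median 2.35). Kcnh4 and the silent subunits Kcnv1 and Kcns1 fell by 2.57, 1.60 and 1.43 on the log2 scale. The silent subunits Kcng2 and Kcng1 rose by 2.52 and 1.72, and the pore-forming Kcna4 by 0.86. Of 17 auxiliary Kv subunits 7 rose and 6 fell, and the dipeptidyl peptidase-like partners of Kv4 channels split, with Dpp10 at -2.89 and Dpp6 at 0.89. Among 31 inward rectifier, two-pore and calcium-activated channels 18 fell and 6 rose, 5 and 0 at least 2-fold. Kcnt1, a sodium-activated channel, Kcnk3 and Kcnj9, a G protein-gated rectifier, fell by 2.19, 1.61 and 1.02, and its partner Kcnj6 rose by 0.84.

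Voltage-gated calcium channels were also lower more often than higher. Of 17 tested, 12 fell and 4 rose, 3 and 1 at least 2-fold, and 14 of the 17 did not overlap. The median was -0.403, beside -0.295 for the pan-neuronal genes. The 3 T-type subunits took different directions: Cacna1h stood at 50.0 to 80.8 CPM in cortex (median 63.6) and 171 to 292 CPM in hippocampus (median 262), a log2 difference of 1.99 ± 0.11, while Cacna1g and Cacna1i fell by 1.33 and 0.98. Cacna1e, the R-type subunit, and Cacna1c, an L-type subunit, rose by 0.75 and 0.64. Of 17 sodium channel genes 9 fell and 5 rose. Scn3b and Scn4b, beta subunits, had opposite differences of 1.85 ± 0.13 and -1.86 ± 0.25, and Scn1a fell by 0.98 on the log2 scale. Of 45 HCN, TRP, chloride and related channels 18 rose and 20 fell. Trpc6, a diacylglycerol-gated channel, rose by 1.87, and Ryr3, an intracellular calcium release channel, rose by 1.65. Ano2, a calcium-activated chloride channel, rose by 2.58, and Hcn4, a pacemaker channel, fell by 1.01.

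Presynaptic genes fell more often than they rose. Of 67 tested, 41 fell and 16 rose, 11 and 7 at least 2-fold. The median log2 difference was -0.366, beside -0.295 for the pan-neuronal genes. Doc2b, a calcium sensor for spontaneous release, stood at 11.3 to 22.5 CPM in cortex (median 15.5) and 116 to 222 CPM in hippocampus (median 203), and its relative Doc2a fell by 1.80. Rims3, an active zone protein, stood at 367 to 463 CPM in cortex (median 433) and 38.4 to 118 CPM in hippocampus (median 46.1), and Stx1a, the plasma membrane SNARE syntaxin-1A, at 394 to 426 CPM in cortex (median 409) and 63.8 to 98.0 CPM in hippocampus (median 80.6); neither overlapped. The cerebellins Cbln2 and Cbln4, secreted synapse organizers, fell by 2.72 and 2.07 on the log2 scale. Of 28 calcium-binding proteins 11 rose and 13 fell, with Cabp7 at 3.88 and Hpca, hippocalcin, at 1.11. Among 47 adenylyl cyclases, phosphodiesterases and RGS proteins 28 fell and 11 rose. Rgs4 and Rgs6, which shorten G protein signals, fell by 2.27 and 2.77, and Rgs14, a marker of CA2, rose by 0.97.

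Genes of axon guidance, adhesion and the extracellular matrix differed in both directions. Of 72 ephrin, semaphorin, plexin, Slit and netrin genes 35 rose and 23 fell, 14 and 11 at least 2-fold. Sema3a stood at 33.3 to 42.6 CPM in cortex (median 35.4) and 1.18 to 3.11 CPM in hippocampus (median 2.08). Its receptor Nrp1 rose by 2.28 on the log2 scale, so ligand and receptor differed in sign. Nrp2 rose by 2.31, while its ligand Sema3f fell by 2.73. Epha7 rose by 2.60 while its ligand Efna5 went from 45.5 to 61.5 CPM (median 52.4) in cortex to 2.49 to 7.79 CPM (median 3.87) in hippocampus. Sema5a and Slit1 rose by 3.48 and 2.74. Of 30 cadherins and non-clustered protocadherins, 96.7% were called, 12 higher and 17 lower, 7 and 10 of them at least 2-fold. Cdh9, of CA3 and dentate cells, stood at 9.03 to 16.7 CPM in cortex (median 10.9) and 69.3 to 101 CPM in hippocampus (median 87.2), and Pcdh20 rose by 2.91. Cdh6, Cdh7 and Cdh1 fell by 2.93, 2.57 and 2.94, the last by 3.89 without animal 5.

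Of 48 matrix genes 18 rose and 17 fell. Gpc4, a glypican that astrocytes and granule cells release, stood at 5.19 to 11.5 CPM in cortex (median 5.78) and 42.8 to 62.5 CPM in hippocampus (median 55.7), and Gpc3, its relative, rose by 2.01 on the log2 scale. Col24a1, a fibrillar collagen, fell by 3.49, and by 4.33 without animal 8. Of 52 Wnt pathway genes 20 rose and 21 fell, 9 and 12 at least 2-fold, with Ror1, a Wnt receptor kinase, at 3.69, Wnt7b at 1.29, Wnt4 at -1.88 and Fzd10 at -2.44. Among 49 growth factor genes 14 rose and 21 fell. Ntf3, neurotrophin-3, stood at 0.623 to 1.84 CPM in cortex (median 0.749) and 8.78 to 17.2 CPM in hippocampus (median 13.9), without overlap, and Tgfb2, transforming growth factor beta 2, at 8.56 to 11.3 CPM in cortex (median 9.87) and 47.5 to 91.6 CPM in hippocampus (median 78.4). Gfra1 and Fgfr1, receptors for GDNF and FGF, rose by 1.54 and 1.42, and Nrg1, neuregulin-1, fell by 1.80.

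Immediate early genes are transcribed within minutes of neuronal firing, through CREB bound at cAMP response elements and SRF bound at CArG boxes. Of 29 tested, 23 were lower in hippocampus and 2 higher, 18 and 1 at least 2-fold, with a median log2 difference of -1.46. The 250 bases before the start of 4 members that fell are shown as examples of these elements, which are described for this gene class. They come from RefSeq (GRCm38.p6), on the gene's strand, with capitals marking every match to the CRE TGACGTCA, to its parts TGACG or CGTCA, or to a CArG box.
Fos (chr12:85473640-85473889, plus strand): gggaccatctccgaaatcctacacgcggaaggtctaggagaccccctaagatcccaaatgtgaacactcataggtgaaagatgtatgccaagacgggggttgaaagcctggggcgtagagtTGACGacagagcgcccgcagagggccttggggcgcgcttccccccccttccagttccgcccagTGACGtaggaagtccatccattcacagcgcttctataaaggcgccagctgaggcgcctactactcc
Npas4 (chr19:4989972-4990221, minus strand): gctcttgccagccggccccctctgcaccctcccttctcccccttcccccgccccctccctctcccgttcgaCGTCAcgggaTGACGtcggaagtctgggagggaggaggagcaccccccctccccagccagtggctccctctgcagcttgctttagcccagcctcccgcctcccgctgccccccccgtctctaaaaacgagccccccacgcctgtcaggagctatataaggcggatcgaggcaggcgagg
Dusp1 (chr17:26508473-26508722, minus strand): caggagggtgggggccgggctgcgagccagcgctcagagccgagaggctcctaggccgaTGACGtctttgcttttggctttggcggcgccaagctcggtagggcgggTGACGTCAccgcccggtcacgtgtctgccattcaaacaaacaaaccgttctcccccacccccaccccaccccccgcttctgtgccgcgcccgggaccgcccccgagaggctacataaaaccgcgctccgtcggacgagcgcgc
Egr2 (chr10:67537316-67537565, plus strand): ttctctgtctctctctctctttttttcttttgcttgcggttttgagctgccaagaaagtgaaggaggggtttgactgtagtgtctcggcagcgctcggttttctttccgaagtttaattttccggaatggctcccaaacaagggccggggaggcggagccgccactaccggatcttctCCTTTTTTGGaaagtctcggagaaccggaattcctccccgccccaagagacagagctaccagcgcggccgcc
Both strands were searched, and every full CRE also holds its parts. The Fos window held a part of the CRE 129 and 66 bases before the start and the Npas4 window 179 and 169 bases before it. In Dusp1 a full CRE lay 143 bases before the start, and in Egr2, for which the table lists 5 starts, a CArG box 72 bases before it. Promoters were found for 23 of the 29 members: 2 held the full CRE (1.77% of 27025 genes), 16 a part of it (19.8% of genes) and 1 the CArG box (1.62%). Of the 17 members that fell and had a promoter, 1 held the full CRE (Dusp1), 12 a part of it and 1 the CArG box (Egr2). The Egr2 start shown was picked for its CArG box, so the 4 windows are not typical of the class. A match describes letters in this window and no binding.

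Of these 4, Fos, a subunit of the AP-1 factor, stood at 30.5 to 114 CPM in cortex (median 70.4) and 4.04 to 11.0 CPM in hippocampus (median 6.42), without overlap, a log2 difference of -3.49 ± 0.09 (adjusted p = 3.12e-11, edgeR). Npas4, which is induced by calcium entry and directs inhibitory synapse formation, stood at 29.3 to 96.7 CPM in cortex (median 50.7) and 4.92 to 10.1 CPM in hippocampus (median 6.97). Egr2, a zinc finger factor, stood at 3.15 to 61.9 CPM in cortex (median 36.1) and 0.412 to 1.68 CPM in hippocampus (median 1.41), a log2 difference of -4.78 ± 0.17, and Dusp1, a phosphatase that ends MAP kinase signals, at 30.2 to 92.2 CPM in cortex (median 63.4) and 8.66 to 14.0 CPM in hippocampus (median 9.82). Egr1 stood at 337 to 859 CPM in cortex (median 759) and 54.9 to 101 CPM in hippocampus (median 69.9). Arc, which drives AMPA receptor endocytosis, stood at 135 to 676 CPM in cortex (median 520.5) and 50.5 to 97.5 CPM in hippocampus (median 73.3). The 2 members called higher were Jun, at 40.1 to 79.6 CPM in cortex (median 51.4) and 149.7 to 227 CPM in hippocampus (median 177), and Nr4a3, at 16.8 to 65.3 CPM in cortex (median 49.8) and 56.3 to 92.7 CPM in hippocampus (median 76.7) (log2 difference 0.78 ± 0.26, adjusted p = 0.0342, edgeR). Jun did not overlap and Nr4a3 did.

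The cortex of animal 3 was low for this class. Its members summed to 1670 CPM there against 3400 to 4130 CPM in the other 7 cortices and 1070 to 1210 CPM in the 8 hippocampi, and it was the lowest cortex for 26 of the 29. Without animal 3, 24 members fell and 2 rose, with a median of -1.52. The cortex of animal 8 was the highest for 14 members, and without animal 8, 22 fell and 3 rose. The labels do not give the time or handling before tissue was taken, whose part in these levels was not tested.

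**Figure D5:**
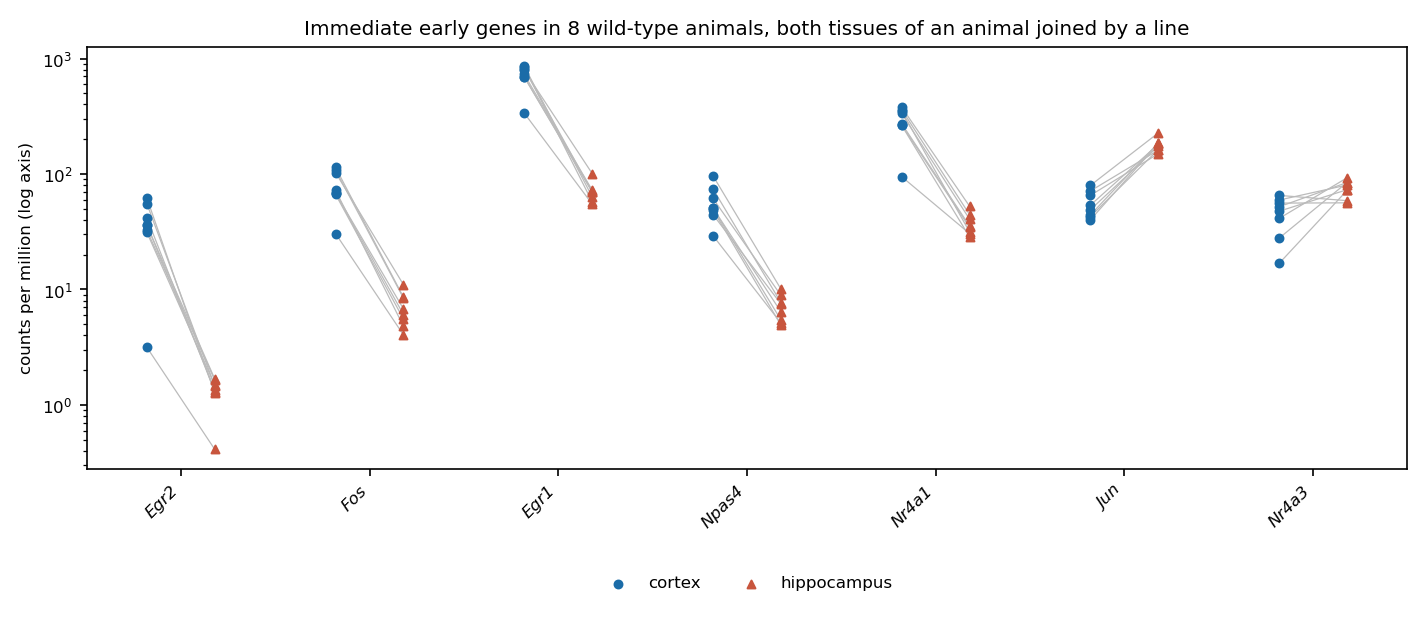
Values in CPM of 7 immediate early genes in each library (logarithmic axis), with cortex as blue circles, hippocampus as red triangles and a line joining the tissues of each animal. Egr2, Fos, Egr1, Npas4 and Nr4a1 were lower and Jun higher in hippocampus, and the cortex of animal 3 lies lowest among cortices for most of them.

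Circadian clock genes were mostly lower in hippocampus. Of 19 tested, 16 fell and 2 rose, 4 and 0 at least 2-fold, with a median log2 difference of -0.489. Npas2, a partner of BMAL1, stood at 52.9 to 66.9 CPM in cortex (median 61.0) and 16.0 to 34.8 CPM in hippocampus (median 19.7), and the repressor Per1 at 93.0 to 258 CPM in cortex (median 219) and 72.4 to 100.5 CPM in hippocampus (median 88.8). Ciart and Nr1d1 fell by 1.06 and 0.68 on the log2 scale. Bhlhe41 and Tef rose by 0.30 and 0.23. The largest fall on this list was that of Rorb, named above for layer 4, and Per1 is also on the immediate early list. The falls are thus in part those of genes on other lists. The list summed to 1720 CPM in the hippocampus of animal 8 against 1470 to 1560 CPM in the other 7, and the counts without that animal were 16 falls and 2 rises.

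Metabolic genes differed by small amounts. Of 36 nuclear-encoded subunits of respiratory complex I, 4 rose and 5 fell, 27 were not called and none was 2-fold apart; with library totals in place of TMM 14 were called. Of 23 cholesterol synthesis genes 14 fell and 2 rose, none 2-fold, with a median of -0.22; 1 rose without animal 8, without animals 6 and 7 or without the animal block. Srebf2, the factor that switches on this pathway, fell by 0.45 on the log2 scale. Of 23 glycolysis genes 13 fell and 6 rose. Hk2, hexokinase 2, stood at 3.70 to 4.78 CPM in cortex (median 4.37) and 7.75 to 11.5 CPM in hippocampus (median 8.88), and was the sole member at least 2-fold apart, with 1 fall of that size added without animal 8, while Ldhb and Pfkp fell by 0.60 and 0.74.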

How the data were processed

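Poly(A) RNA of cortex and hippocampus was sequenced as paired-end reads from directional libraries, per the labels' protocols. The authors deposited raw, unnormalized counts per gene and library. The submitters' processing notes name HISAT2, featureCounts, DESeq2 and FastQC and the build mm39 (GRCm39), without versions or roles. No source used here gives the strand setting of the counting, so reads of overlapping and antisense genes, and of near-identical copies, may be assigned to either. A second table of normalized values was not used.

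Rows without a symbol (7074) were kept under their gene identifier. Counts of the 16 libraries were filtered (filterByExpr), scaled by TMM and tested with edgeR 4.0.16 in R 4.3.3 (limma 3.58.1 and the data.table package, version 1.17.8), by the robust quasi-likelihood test of tissue with the animal as a block, at a false discovery rate of 0.05 by Benjamini-Hochberg. A gene high in 1 tissue passes the filter through that tissue. The median biological coefficient of variation was 0.0888. CPM used TMM-scaled totals, and log2 CPM a prior count of 2. The interaction of tissue and genotype was fitted over all 29 pairs.

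Animals are separate by their label, and the same label pairs the tissues. Over 5000 genes, deviations from the tissue mean correlated with a median of 0.125 (-0.0273 to 0.366) between tissues of the same animal and -0.0294 between different animals. On simulated data over 19158 genes for this comparison, the test recovered 47.8%, 97% and 100% of genes changed 1.2-, 1.5- and 2-fold, with 5 false calls. The changed genes were only 67, 67 and 66, none of low mean CPM, and all genes shared the same dispersion. Recovery among low genes, and false calls where most genes differ or dispersions vary, were not tested.

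Genes were named by a rule: the 12 largest rises and falls among called genes with mean log2 CPM of at least 1 and the same sign in 8 of 8 animals, up to 5 rises and 5 falls per list, and any receptor, channel or defining marker. The libraries, lists and genes were chosen with earlier results of these data known, and list counts are descriptions. Some genes that the rule names are not reported here. Promoters came from the RefSeq table of GRCm38.p6. Gene lengths, GC content and gene types came from GENCODE vM21, which matched 97.7% of tested genes, and no coordinates were moved between builds. Alternatives, 18 for the main comparison, included DESeq2 1.42.0, other scalings and leaving out each animal. Python 3.11.15 with pandas 2.3.3, numpy 2.4.6 and matplotlib 3.10.9 made summaries and figures.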

Additional observations from a re-analysis of the deposited data

Results flagged for a closer look

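Among 158 groups of 8 values examined (list sums and the most changed genes in each tissue), 23 held a single library far from the other 7. The nominal rate of this rule, about 1 in 20, holds for independent normal values. These groups share libraries and list members, so an excess over that rate was not tested. Of the 23, the hippocampus of animal 8 accounted for 9 and that of animal 6 for 5. In the hippocampus of animal 8, summed CPM was 1710 for deep-layer genes (1020 to 1220 in the other 7), 2570 for dentate granule cell genes (3510 to 3980), 513 for subiculum genes (285 to 344) and 4520 for AMPA and kainate receptor auxiliary proteins (5870 to 6730). It was 1590 for inward rectifier, two-pore and calcium-activated potassium channels (1400 to 1460), 2980 for neurotrophin, FGF, TGF-beta and neuregulin genes (3190 to 3350) and 1720 for clock genes (1470 to 1560). In the same library Lct stood at 51.0 CPM (111 to 140 in the others) and Vwa3b at 20.6 CPM (33.0 to 43.5). Dentate genes were thus low and deep-layer and subiculum values high in 1 library; the part of dissection was not tested.

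In the hippocampus of animal 6, Igfn1 stood at 5.61 CPM (0.501 to 2.54 in the others), Dkkl1 at 3.56 CPM (0.247 to 1.72), Tspan11 at 1.13 CPM (0.493 to 0.686) and Rspo1 at 2.81 CPM (1.11 to 1.64), while GABA-B, glycine receptor and inhibitory scaffold genes summed to 4190 CPM (4500 to 4690). Single genes were examined only among the 12 largest rises and the 12 largest falls, and these 4 were falls. In the cortex of animal 6, interneuron genes summed to 2660 CPM (2860 to 3010) and microglia genes to 733 CPM (647 to 687). In the cortex of animal 8, meningeal and fibroblast genes summed to 981 CPM (314 to 582). In the cortex of animal 3, immediate early genes summed to 1670 CPM (3400 to 4130) and postsynaptic scaffold and kinase genes, which include Arc, to 21600 CPM (22900 to 23700). Egr2 stood at 0.412 CPM in the hippocampus of animal 3 (1.27 to 1.68). In animal 2, cortex neuropeptide genes summed to 6360 CPM (5790 to 6060), cortex cadherins to 1650 CPM (1500 to 1570) and hippocampus neurogenesis genes to 4050 CPM (3800 to 3900).

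The tissue difference of 5 genes differed between double heterozygous and wild-type animals, by the interaction term of edgeR's fit over 21354 genes. The interaction, positive where the hippocampus excess was larger in double heterozygotes, was 0.67 on the log2 scale for Pcsk1n, the proSAAS precursor (adjusted p = 0.0171), 0.759 for Zfp771 (adjusted p = 0.0313), -0.416 for Gm14681, 0.344 for ENSMUSG00000121607 and 1.75 for Scand1 (adjusted p = 0.0379 each).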

How the results depend on the processing

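The counts of genes called kept within 1.5 times under most of the 18 alternatives. Tested against a fold of 1.2 (glmTreat), 6261 genes were called, 2992 higher and 3269 lower. Without the filter on low counts, which tests 39884 rows, 3695 genes were at least 2-fold apart, 1659 higher and 2036 lower. Without the replicate block 11661 genes were called, and 11424 of the paired calls were among them; leaving out 1 animal gave 11100 to 11924 calls and 2239 to 2425 at 2-fold. DESeq2 with the block called 10786, 10726 of them also called by edgeR. Of 468 named genes, 467 kept their direction under all alternatives and 403 their call. Apart from Slc25a1, these genes were chosen as called with the largest differences in the same data, so the count is no separate check. The exception in direction was Slc25a1, not called, whose log2 difference of -0.011 became 0.017 with library totals, 0.009 without animals 6 and 7, 0.11 with length and GC offsets, 0.002 without animal 5 and 0.004 without animal 6 (-0.037 to 0.004 over the animals left out); the cause was not tested. The called differences of Adam33, Dlk1, Sh3rf2, Eomes, Chrna6, Chrnb3, Cdh1, Col24a1 and Ndst4 moved by more than 1.5-fold under at least 1 alternative. Dlk1 went from 2.68 to 1.94 without animal 2 and Eomes from 5.35 to 6.27 without animals 6 and 7. The share of calls that were higher ranged from 47.8% to 55.5%, and the median over tested genes stayed at or under 0.042. The 5 interaction calls in double heterozygotes became 1 without the replicate block, 0 without animals 6 and 7 and 3 without wild-type animal 8, settings chosen after seeing the data; the cause was not tested.

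Limits: the comparison reads bulk tissue of 8 males, with cortical area and hippocampal part not given in the labels. Each animal gave 1 library per tissue, so dissection and region cannot be told apart within an animal. Animals 6 and 7 go against their label for Slc25a1. Low genes, such as Ttr or Igfbpl1 in cortex, rest on few counts, and their folds are imprecise.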

Other observations

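The following families were read after the values were seen, by symbol prefix. Of 82 cytoplasmic ribosomal protein genes, 37 were higher in hippocampus and 3 lower, none 2-fold apart, with a median log2 difference of 0.117, and near-identical pseudogene copies make single values uncertain. Of 25 histone genes 17 were higher and 2 lower, 7 of the higher ones at least 2-fold. Histone genes share sequence, and most of their transcripts lack a poly(A) tail. Of 364 Zfp zinc finger genes 147 were higher and 69 lower, with 5 and 7 at least 2-fold apart. Of 33 Cfap and Dnah genes, which encode parts of motile cilia, 17 were lower and 8 higher, 11 and 4 at least 2-fold. Of 21 Dusp phosphatases, some of which end MAP kinase signals and several of which are immediate early genes, 15 were lower and 4 higher. Of 14 tubulin genes 10 were lower and 2 higher. The shares called were 48.8% of ribosomal protein, 59.3% of Zfp, 75.8% of Cfap and Dnah and 76.0% of histone genes. They were 85.7% of tubulin and 90.5% of Dusp genes, beside 61.1% of all tested genes. At least 2-fold apart were 3.3% of Zfp, 28.0% of histone, 33.3% of Dusp and 45.5% of Cfap and Dnah genes, beside 11.8% of all.

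Long intergenic RNAs were more often at least 2-fold apart than protein-coding genes, 27.2% of 698 tested against 11.1% of 14658. The shares called at any size were 61.2% and 65.2%. Processed pseudogenes stood at 4.66% of 1244.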
